A study of Mus musculus with 6 samples.

Results

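LβT2 is a mouse pituitary cell line of the gonadotrope lineage. The arrays described here are the 3 that received only vehicle: 1 culture taken at 1 h, 1 at 2 h and 1 at 6 h after vehicle was added to cells that had been without serum for 16 h. They are 3 of 6 arrays, chosen by their labels. The other 3 are cultures of the same line and times that received human activin A at 30 ng/ml, again 1 culture per time. All 6 cultures had the same 16 h in serum-free medium, and the labels describe the vehicle no further than the salt and Tris buffer that activin was made up in. Each RNA was hybridised to 1 mouse genome array, so each time has n = 1 vehicle array, a difference between vehicle arrays has no replicate check, and culture, array and time cannot be told apart. A probe set was kept where its mean signal over the 3 vehicle arrays reached a fixed signal limit near the median of the arrays. Of 45037 probe sets for transcripts, 22760 (50.5%) passed, and 19750 of these name 1 gene, which gave 11492 genes, each read by its brightest probe set. The limit is placed by its neighbours: just inside it lay probe sets of S1pr4 (mean signal 155.03), Bub1b (155.07) and Dnm3 (155.07), and just outside it Mycbp2 (154.9), Snhg3 (154.93) and Kif1c (154.97).

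Serum carries growth factors and lipids, and its removal is known to lower growth factor signalling through the MAP kinases and to change the supply of cholesterol. Cells answer a lack of sterol through SREBP-2, a transcription factor held in the endoplasmic reticulum by INSIG proteins and released to drive the genes of cholesterol synthesis and uptake, often together with NF-Y, which binds the CCAAT box. A change of medium or an added solution can also bring on immediate early genes such as Fos and Egr1, whose RNAs are short-lived.

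Signals are linear values from the scanner software, with each array scaled to the same trimmed mean of 499.9, and have no physical unit. The median signal was 158.6, 160.1 and 161.8 on the vehicle arrays at 1, 2 and 6 h, and 164.7, 151 and 166.4 on the activin arrays. The gonadotrope label was borne out by 8 of 9 marker genes past the signal limit, among them Cga at 11888.7, 13900.2 and 13746, while Fshb, the follicle-stimulating hormone beta subunit, was under it at 11.1, 6.4 and 38.7. Of the markers of other pituitary cells, Pomc (229.6, 233.3 and 159.3) and Tshb (437.4, 451.6 and 450.9) passed the limit, Tbx19 reached 154.1, and Prl, Gh, Sox2 and S100b read 66.1 at most. The summed signal of the 9 gonadotrope markers was 34510.4, 36330.1 and 35188.5 at 1, 2 and 6 h. The probe set at the 5′ end of 18S ribosomal RNA read 610.1, 642.8 and 190.3 on the vehicle arrays at 1, 2 and 6 h, and 12201.8, 1171.1 and 248 on the activin arrays, so the activin 1 h array stood apart in this control. Every activin ratio against 1 h below uses that array, whether or not this is repeated, and the fit over all arrays was also run without it.

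The vehicle arrays differed little. At 2 h against 1 h, 405 of 11492 genes (3.52%) were at least 1.5-fold apart, 216 of them higher (1.88%) and 189 lower (1.64%). At 6 h against 1 h the number was 496 (4.32%), with 260 higher (2.26%) and 236 lower (2.05%). At 6 h against 2 h it was 417 (3.63%), with 199 higher (1.73%) and 218 lower (1.9%). These 3 pairs share arrays and are not independent of each other. The same pairs of times on activin arrays had 856 (7.45%), 1060 (9.22%) and 809 (7.04%) genes at least 1.5-fold apart. Genes and probe sets were chosen by vehicle signal alone, and the activin counts against 1 h use the activin 1 h array. The treatments are therefore not compared on equal terms. Over all 3 vehicle arrays, 919 genes (8%) had a highest signal at least 1.5-fold over the lowest. The highest lay at 1 h for 288 of them, at 2 h for 300 and at 6 h for 331, so no single array held most of the extremes. An array reads the pooled RNA of a culture, so fewer cells with a transcript and less of it per cell cannot be told apart.

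Most genes past 1.5-fold were dim. Among 3854 genes with a mean vehicle signal under 500, 8.72% were 1.5-fold apart at 2 h against 1 h and 10.2% at 6 h against 1 h. Among 2679 genes at 500 to 1000 the shares were 1.64% and 2.58%, and among 2577 genes at 1000 to 2000 they were 0.815% and 1.16%. Of 803 genes at 4000 and above, 1 was apart in each of these pairs (0.125%). The SD of the log2 ratios over genes at 2 h against 1 h was 0.36 under 500 and 0.09 at 4000 and above, which sets how far a single gene's ratio can be read at each signal.

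**Figure D1:**
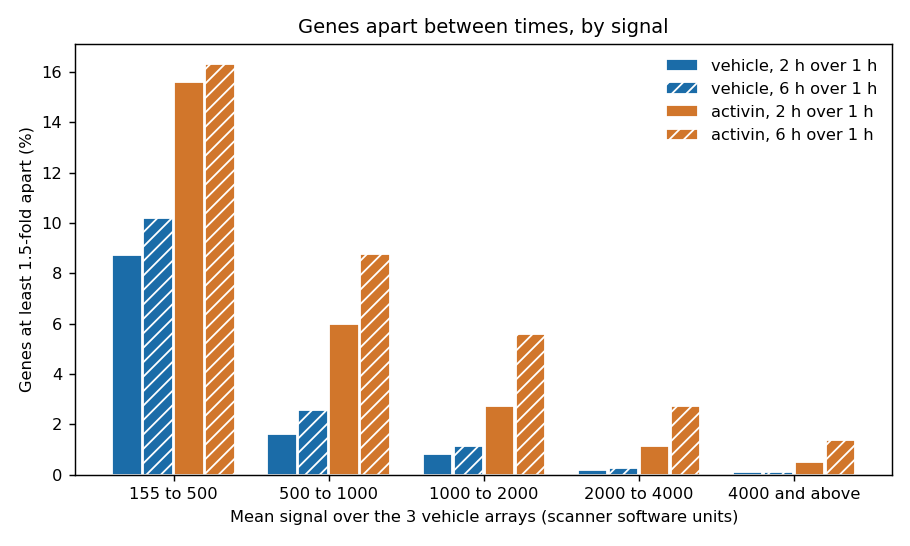
Percent of genes at least 1.5-fold apart between 2 times (vertical axis) by mean signal over the 3 vehicle arrays (horizontal axis, scanner software units), for the vehicle arrays (blue) and the activin arrays (orange), at 2 h over 1 h (plain) and 6 h over 1 h (hatched). The vehicle shares drop with signal, to 0.125% among genes at 4000 and above, and are below the activin shares in each class. Genes and classes were chosen by vehicle signal alone, and the activin shares all use the activin 1 h array, so the treatments are not compared on equal terms.

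The only test of time these arrays allow is a fit over all 6, in which a difference between times has to be shared by vehicle and activin cultures. With limma and treatment as an additive term, 0 of 11492 genes (0%) passed a Benjamini-Hochberg adjusted p of 0.05 at 2 h against 1 h, at 6 h against 1 h and at 6 h against 2 h. The smallest adjusted p from limma was 0.135, 0.482 and 0.468. At an unadjusted p under 0.05 there were 777 genes (6.76%), 1105 (9.62%) and 809 (7.04%), and limma-trend with a robust prior also called 0 in each pair. Without the activin 1 h array the fit has 1 residual degree of freedom and 1 array at 1 h. It has little room to call a gene, so its calls are not given. In data simulated for 6 h against 1 h with 11492 genes, 50 genes at each fold were shifted alike on both treatments. The fit over all 6 arrays recovered 1.4% of genes set 1.5-fold apart, 47.8% at 2-fold and 84.9% at 3-fold. The simulated spread did not depend on signal, whereas dim genes spread more here, so these shares need not hold for dim genes. No gene below passed this test, so the values that follow describe these arrays and are not calls.

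Genes of cholesterol synthesis and uptake were lower on the 2 h vehicle array. All 20 measured members read lower at 2 h than at 1 h (median log2 ratio −0.21, range −0.62 to −0.03), beside a median of 0.00 over all genes, 49% of which were below 0. Dhcr7 was the 1 member past 1.5-fold, beside 1.64% of all genes lower by as much. At 6 h against 1 h the median was 0.05, with 12 members above and 8 below 0, and at 6 h against 2 h it was 0.23, with 18 above 0. The 2 h array was the lowest of the 3 for 18 of 20 members, beside 29.5% of all genes. The 36 probe sets of these genes that passed the signal limit gave a like picture, with 35 below 0 at 2 h against 1 h. The activin arrays, which share no array with these, had a median of −0.21 at 2 h against 1 h, with 16 of 20 members below 0, and the 2 h array lowest for 14 members, beside 28.6% of all genes. That ratio uses the activin 1 h array with the bright 18S control.

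The promoters of 3 members that read lower at 2 h on both treatments are shown, chosen after their values were seen, because the CCAAT box (letters CCAAT, searched on both strands) occurred in every promoter set of this list that could be looked up. They are RefSeq sequences on GRCm38.p6, from 250 bases before to 50 bases after the gene's start, 5′ to 3′ along the gene, with each CCAAT box in capitals (ATTGG where it lies on the opposite strand). Cyp51 lies on the minus strand at chr5:4104648-4104947, Idi1 on the plus strand at chr13:8885356-8885655 and Lss on the plus strand at chr10:76531355-76531654.
Cyp51: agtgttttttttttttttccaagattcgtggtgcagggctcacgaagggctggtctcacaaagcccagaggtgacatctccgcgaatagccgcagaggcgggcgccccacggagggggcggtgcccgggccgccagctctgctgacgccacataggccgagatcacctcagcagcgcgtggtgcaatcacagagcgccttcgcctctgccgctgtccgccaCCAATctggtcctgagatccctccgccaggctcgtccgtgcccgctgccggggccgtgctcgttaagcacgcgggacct
Idi1: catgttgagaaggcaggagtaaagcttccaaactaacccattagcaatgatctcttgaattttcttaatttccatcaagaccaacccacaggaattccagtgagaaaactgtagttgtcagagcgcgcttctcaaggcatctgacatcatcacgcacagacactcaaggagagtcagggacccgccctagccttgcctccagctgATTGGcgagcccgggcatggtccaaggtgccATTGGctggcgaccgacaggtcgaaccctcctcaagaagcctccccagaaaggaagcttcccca
Lss: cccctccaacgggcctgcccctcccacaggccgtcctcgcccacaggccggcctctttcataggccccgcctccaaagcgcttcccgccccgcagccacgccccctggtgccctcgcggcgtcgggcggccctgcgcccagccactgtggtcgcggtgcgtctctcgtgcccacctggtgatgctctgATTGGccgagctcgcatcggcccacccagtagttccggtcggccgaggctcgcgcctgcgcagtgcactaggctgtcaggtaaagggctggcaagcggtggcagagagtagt
A CCAAT box lay in a promoter of 16 of the 16 list members with an entry, beside 43.2% of 9329 measured genes and 41.1% of all 27025 genes with an entry. A form of the sterol regulatory element (letters TCACNCCAC, both strands) lay in 1 of the 16, Hmgcs1, beside 1.46% of measured genes. No other form of the element was searched for, so a lack of these letters does not show that a promoter lacks the element. A match to these letters is a description of the sequence only.

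Cyp51, the lanosterol demethylase, read 1647.5, 1178.7 and 1697.8 on the vehicle arrays at 1, 2 and 6 h and 1711.6, 1217.9 and 2105.1 on the activin arrays. Idi1, the isopentenyl diphosphate isomerase, read 2136.7, 1838.3 and 2314.3 on the vehicle arrays and 2324.8, 1411.3 and 2288.5 on the activin arrays. Lss, lanosterol synthase, read 1084.2, 858.3 and 1030.7 on the vehicle arrays and 1155.6, 800 and 1122.9 on the activin arrays. All 3 were lowest at 2 h on both treatments and near their 1 h level at 6 h, apart from Cyp51 on the activin 6 h array. Fdft1, squalene synthase, read 2841.4, 2071.2 and 2975.9 on the vehicle arrays and 2949.7, 3100.8 and 2925.7 on the activin arrays, so its low value at 2 h was on the vehicle array alone. Srebf2, which encodes SREBP-2 itself, read 1221.4, 982.6 and 1400.2 on the vehicle arrays and 974.8, 1185.8 and 1197.4 on the activin arrays. Dhcr7, which makes cholesterol in its last step, had 2777.7, 1805.4 and 2000.1 on the vehicle arrays, 1.54-fold lower at 2 h than at 1 h, and 2343.9, 1914 and 2113.2 on the activin arrays. Msmo1, a sterol methyl oxidase, had 2188, 1765.5 and 2690.6 on the vehicle arrays, 1.52-fold higher at 6 h than at 2 h, and 2955.7, 2712.9 and 3653.4 on the activin arrays. Insig1, the sterol-sensing anchor, stayed low at 6 h, with 2169.7, 1768.6 and 1729.9 on the vehicle arrays and 2969.5, 1939.5 and 2220.5 on the activin arrays. Fatty acid synthesis genes, which respond to the related SREBP-1, had 0 of 15 members past 1.5-fold at 2 h against 1 h. Of all genes 3.52% passed it, so this count does not set the list apart. The median of the list was −0.04. The 6 measured liver X receptor targets had a median of −0.06.

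**Figure D2:**
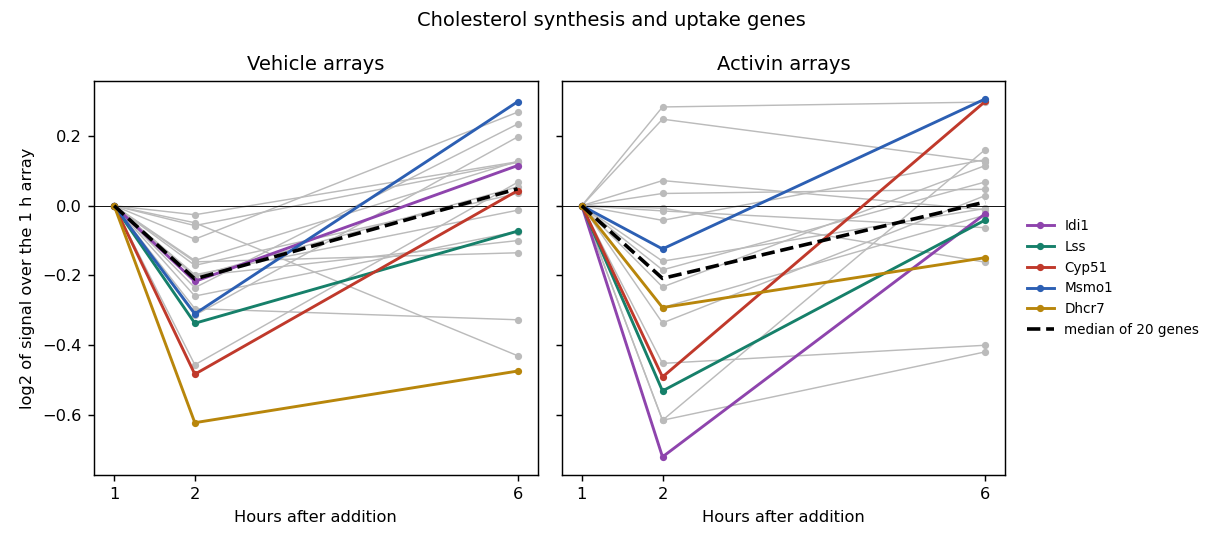
log2 of the signal over the 1 h array of the same treatment (vertical axis) at 1, 2 and 6 h (horizontal axis) for 20 cholesterol synthesis and uptake genes, on vehicle arrays (left) and activin arrays (right), 1 array per point. The median (dashed) lies at −0.21 at 2 h on both treatments and at 0.05 on vehicle arrays and 0.01 on activin arrays at 6 h.

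The genes with the highest 6 h to 1 h ratios were mostly dim at 1 h, and folds below have signals under the limit raised to it. Smo, the signal-passing receptor of the Hedgehog pathway, read 143.7, 643.4 and 913.7 on the vehicle arrays at 1, 2 and 6 h, at least 5.89-fold higher at 6 h than at 1 h. On the activin arrays it read 778.5, 941.5 and 298.6, so the vehicle 1 h array and the activin 6 h array were its low ones. Abca2, a lipid transporter of the ABC family, had 84.7, 176.5 and 668.3 on the vehicle arrays, at least 4.31-fold higher at 6 h, and 411.1, 273.5 and 344 on the activin arrays. Cep152, a scaffold for centriole duplication, had 163.9, 419.1 and 489.9 on the vehicle arrays, 2.99-fold higher at 6 h, and 370.5, 449.5 and 426.8 on the activin arrays. For these 3 genes the vehicle 1 h signal lay under every other array. Kcna2, a voltage-gated potassium channel subunit, Gabre, a GABA receptor subunit, and Six5, a homeobox factor, had folds of 2.73, 2.34 and 2.3 with 1 h signals of 118.4 or less, so these folds are lower bounds.

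Several of the highest genes, Cep152, Rbm12b1, Tbc1d22b, Mis12 and Serf1 among them, were lowest at 1 h on both treatments by their brightest probe set. Rbm12b1, an RNA-binding motif gene, read 157.5, 307.3 and 405.8 on the vehicle arrays, 2.58-fold higher at 6 h than at 1 h, and 142.5, 322.5 and 445.8 on the activin arrays. Tbc1d22b, whose protein has a Rab GTPase-activating domain, had 504.3, 1173.2 and 1193 on the vehicle arrays, 2.37-fold higher at 6 h, and 635.2, 1013.8 and 990.1 on the activin arrays. Vehicle and activin arrays of the same time lay close for Rbm12b1 and Tbc1d22b. Mis12, a kinetochore gene, had 550, 639.3 and 1246.1 on the vehicle arrays and 635.7, 1161.4 and 716.3 on the activin arrays, so its high array was at 6 h with vehicle and at 2 h with activin. Serf1 was 2.63-fold higher at 6 h than at 1 h by its brightest probe set, at 617.9, 909 and 1627.2, but another read 719.7, 763.4 and 559.1.

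Among the genes with the lowest 6 h to 1 h ratios, Rasl10b, a Ras-like small GTPase, read 660.4, 714.2 and 195.4 on the vehicle arrays, 3.38-fold lower at 6 h than at 1 h. It read 523.2, 500.5 and 197.9 on the activin arrays, so both 6 h arrays were low and no other array was. Cited4, a co-activator that binds CBP and p300, had 1585.4, 1081.4 and 745.3 on the vehicle arrays, 2.13-fold lower at 6 h, and 1150.9, 858.8 and 446.1 on the activin arrays. Ighm, the immunoglobulin mu constant region, had 1015.4, 683.7 and 464.9 on the vehicle arrays, 2.18-fold lower, and 1123.5, 783.1 and 300.9 on the activin arrays. For Cited4 and Ighm each later array of a treatment read lower than the one before. A second Ighm probe set shared that direction at 6 h (613.6, 529.9 and 342.4) and another did not (280.6, 406 and 375.9). Lin52, a subunit of the DREAM cell cycle complex, had 433.3, 536.3 and 131.4 on the vehicle arrays and 628, 317.5 and 257.8 on the activin arrays. Cfap61, a cilium and flagellum gene, ran opposite ways, at 887.4, 473.2 and 306.3 on the vehicle arrays and 70.2, 110.4 and 806.8 on the activin arrays, and its other probe set stayed between 178.7 and 181.9 on the vehicle arrays. Limma gave Rasl10b, Cited4, Ighm, Rbm12b1 and Tbc1d22b an adjusted p of 0.482 each at 6 h against 1 h.

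**Figure D3:**
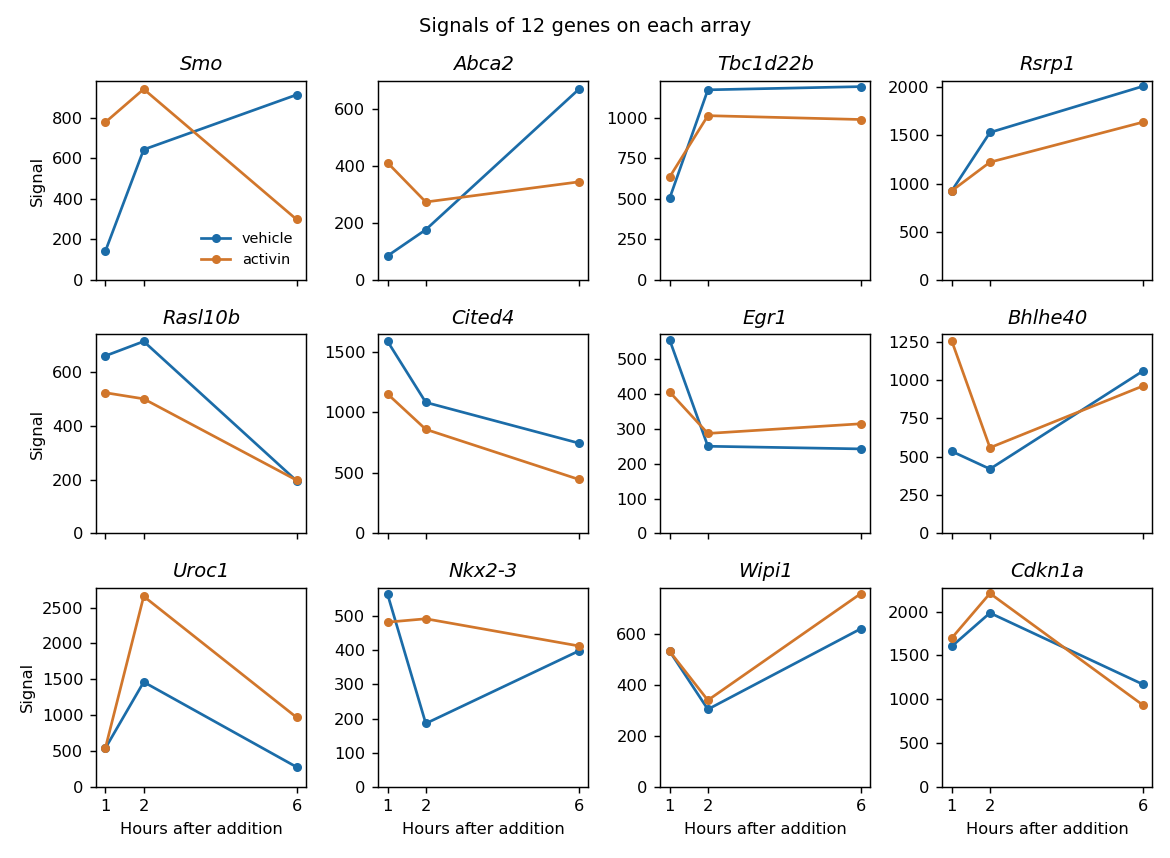
Signal (vertical axis, scanner software units, from 0) at 1, 2 and 6 h after addition (horizontal axis) of 12 genes, on vehicle arrays (blue) and activin arrays (orange), 1 array per point. Rasl10b and Cited4 are lowest at 6 h and Tbc1d22b and Rsrp1 lowest at 1 h on both treatments, while Nkx2-3 has its vehicle 2 h array below all others.

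The genes with extreme 2 h to 1 h ratios were again mostly dim. Uroc1, urocanase of histidine breakdown, read 540.3, 1461.4 and 275.2 on the vehicle arrays, 2.7-fold higher at 2 h than at 1 h, and 544.8, 2656.7 and 967.4 on the activin arrays. Its 2 h array was the highest on both treatments. Cyp2c38, a cytochrome P450, had 317, 916.7 and 355 on the vehicle arrays and 436.5, 269.9 and 439.6 on the activin arrays. Otp, a homeobox factor, had 276.6, 758.3 and 382.8 on the vehicle arrays and 385.9, 152.4 and 286.8 on the activin arrays. In both the vehicle 2 h array stood above and the activin 2 h array below the rest. Nkx2-3, another homeobox factor, had 564.5, 185.6 and 398.2 on the vehicle arrays, 3.04-fold lower at 2 h than at 1 h, and 482.7, 492.6 and 413 on the activin arrays, so the vehicle 2 h array was low alone. Sphk2, a sphingosine kinase, had 931.7, 424.3 and 748.5 on the vehicle arrays and 546.9, 543.8 and 593.4 on the activin arrays. Sorbs3, which encodes the adhesion protein vinexin, had 475.2, 145.5 and 237.7 on the vehicle arrays and 271.3, 338 and 252.7 on the activin arrays.

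Immediate early genes, 20 of them measured, had a median of −0.17 at 6 h against 1 h, where 2 passed 1.5-fold upwards and 2 downwards, and 1 was lower at 2 h, beside 2.26%, 2.05% and 1.64% of all genes. Egr1, a zinc finger factor that growth factors and gonadotropin-releasing hormone bring on, read 555.4, 250.1 and 242.5 on the vehicle arrays, 2.22-fold lower at 2 h and 2.29-fold lower at 6 h than at 1 h. On the activin arrays it read 406, 286.9 and 314.6, and the 1 h array was again the highest. Nr4a1, an orphan nuclear receptor, was also highest at 1 h, with 365.7, 260.8 and 223.1 on the vehicle arrays and 357.3, 166 and 243.3 on the activin arrays. Its relative Nr4a2 was highest at 6 h, with 216.4, 153.7 and 402.4 on the vehicle arrays and 358.8, 280.3 and 446.5 on the activin arrays, though another Nr4a2 probe set read 129.4, 211.8 and 133.8 with vehicle. Fos was within 1.5-fold on the vehicle arrays, at 337.7, 339.4 and 265, while the activin arrays read 695.8, 477.7 and 337. Jun had 299.1, 240.1 and 276.3 and Myc 338.6, 323.8 and 300.8 on the vehicle arrays, all within 1.5-fold. Ier3 read 139.2, 198.2 and 247.9 on the vehicle arrays and 89.1, 134.6 and 173 on the activin arrays.

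Of 8 measured ERK feedback genes, 1 was lower at 2 h and at 6 h, beside 1.64% and 2.05% of all genes. It was Dusp8, a MAP kinase phosphatase, at 373.3, 115.1 and 125 on the vehicle arrays. Its activin arrays read 100.1, 110.7 and 82.9 and a second probe set 151.3, 169.5 and 178.1 with vehicle, so the vehicle 1 h value stood alone. Of 11 cAMP and CREB target genes 3 were lower at 6 h, with a median of −0.22, beside 2.05% of all genes lower and a median of −0.01. Among them Sik1, a salt-inducible kinase, had 280, 239.1 and 123.4 on the vehicle arrays and 322.3, 244.5 and 287.5 on the activin arrays. Among its members with a mean signal of at least 500 that list's median was 0.09.

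Of 18 circadian clock genes, 1 was at least 1.5-fold higher and 1 lower at 6 h than at 1 h, with a median of −0.03, beside 2.26% and 2.05% of all genes. Bhlhe40, a repressor in the clock loop, read 535.3, 420.1 and 1058.8 on the vehicle arrays, 1.98-fold higher at 6 h than at 1 h and 2.52-fold higher than at 2 h. On the activin arrays it read 1255.8, 559 and 961.2, so both treatments had their lowest value at 2 h. Nr1d1, which encodes the repressor REV-ERBα, had 719.7, 426.6 and 655 on the vehicle arrays, 1.69-fold lower at 2 h, and 455, 417.8 and 413.3 on the activin arrays. Npas2, a partner of BMAL1, had 773.4, 539.6 and 505.5 on the vehicle arrays and 837.6, 722.4 and 468.5 on the activin arrays, lowest at 6 h on both, while its other probe set was lowest at 2 h on both (307.9, 262.3 and 298.2 with vehicle, 345, 313.1 and 314.5 with activin). The output factor Dbp, at 4392.6, 3600.9 and 4092.9, Per1, at 995, 770.5 and 853.3, and Arntl, which encodes BMAL1, at 832.1, 989.4 and 970.8, stayed within 1.5-fold on the vehicle arrays.

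Among stress pathways the shares of members past 1.5-fold lay near or under those of all genes (3.52% at 2 h and 4.32% at 6 h against 1 h). Of 26 integrated stress response and amino acid genes, 1 passed 1.5-fold, Ddit3, which encodes the factor CHOP. It read 73.4, 263.1 and 240.8 on the vehicle arrays and 194.9, 326.6 and 180 on the activin arrays, so it was at least 1.7-fold higher at 2 h than at 1 h with vehicle. Trib3, a target of CHOP, had 746.8, 659.8 and 799.7. Of 22 unfolded protein response genes, 1 passed 1.5-fold at 6 h, the chaperone gene Hyou1, at 2208.9, 1538.5 and 1407.6 on the vehicle arrays and 3059, 2004 and 2174.5 on the activin arrays. Another Hyou1 probe set was highest at 2 h, at 1277.3, 2349 and 965.6. None of 10 heat shock genes and none of 10 NRF2 genes passed 1.5-fold in any of the 3 pairs, beside 8% of all genes.

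Of 19 hypoxia and glycolysis genes, 1 passed at 6 h against 1 h and 1 at 6 h against 2 h, beside 4.32% and 3.63% of all genes. Ankrd37, a hypoxia-inducible gene, had 229.4, 289.3 and 428.6 on the vehicle arrays and 192.3, 204.4 and 368.9 on the activin arrays, highest at 6 h on both. Hk2, a hexokinase, had 1250.6, 967.6 and 1864.9 on the vehicle arrays, 1.93-fold higher at 6 h than at 2 h, and 1441.4, 654.8 and 1232.4 on the activin arrays. Both treatments had their lowest Hk2 signal at 2 h. Wipi1, an early autophagy protein gene, followed the same course, with 530.8, 303.3 and 618.8 on the vehicle arrays and 530.4, 338.9 and 756.5 on the activin arrays. Of the 3 other Wipi1 probe sets, 1 had no low value at 2 h with vehicle, at 507, 502.1 and 393.3, and 1 was highest there, at 232.4, 270.6 and 215.3. With activin all 3 were highest at 2 h, at 647.9, 317.4 and 238.9. Only the brightest Wipi1 probe set was thus lowest at 2 h on both treatments. Txnip, a glucose-responsive gene, was even, at 1088, 1173.1 and 1167.5.

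Of 11 p53 targets, 10 read higher at 2 h than at 1 h, with a median of 0.11 and 1 past 1.5-fold, beside 51% of all genes above 0 and 1.88% past it. At 6 h against 2 h, 8 read lower and 2 of these were past it, beside 53.4% and 1.9% of all genes. Cdkn1a, the CDK inhibitor p21, had 1604, 1986 and 1170.4 on the vehicle arrays, 1.7-fold lower at 6 h than at 2 h, and 1698.5, 2209.4 and 933.5 on the activin arrays. Btg2, an antiproliferative gene, had 1005.3, 1211.8 and 776.8 on the vehicle arrays and 1547.3, 1149.2 and 890.7 on the activin arrays. Both genes were lowest at 6 h on both treatments. Plk2, a polo-like kinase, had 207.3, 340.6 and 301.3 on the vehicle arrays and 339.4, 789.7 and 623.4 on the activin arrays, lowest at 1 h on both. A second Plk2 probe set was also lowest at 1 h with vehicle (162.5, 196.6 and 172.6) but highest there with activin (219.8, 109.9 and 131.5).

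The lists of mitosis, DNA replication, ribosomal protein, oxidative phosphorylation and reference genes had no member past 1.5-fold between any 2 vehicle arrays, beside 8% of all genes. Many of these members were bright, and bright genes seldom passed it. Of all genes at 2000 to 4000, 0.19% did at 2 h against 1 h and 0.253% at 6 h against 1 h. Of 25 mitosis genes, 24 read higher at 2 h than at 1 h with vehicle, with a median of 0.13, and 20 at 6 h than at 1 h, with a median of 0.11, beside 51% and 47.8% of all genes above 0. The lean was less even over the 51 probe sets of these genes past the signal limit. Of these, 42 read higher and 9 lower at 2 h than at 1 h, and 36 higher and 15 lower at 6 h than at 1 h. Ube2c, a ubiquitin-conjugating enzyme of mitotic exit, read 6939.6, 8165.8 and 7270.8 on the vehicle arrays and 6930.7, 8766 and 6609.4 on the activin arrays. Kif23, a cytokinesis motor, had 3011, 3746.8 and 3293.8 on the vehicle arrays and 3512.4, 3496.7 and 3487 on the activin arrays. The activin median of the list was 0.11 at 2 h against 1 h and −0.06 at 6 h against 1 h. The 29 DNA replication genes had medians of 0.03 at 2 h and −0.03 at 6 h against 1 h. Ccnd1, the G1 cyclin D1 gene that growth factors raise, read 333.5, 315.9 and 309.9 on the vehicle arrays and 345.7, 330.3 and 360.8 on the activin arrays, a spread well under 1.5-fold.

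Bright genes as a whole leaned upwards at 2 h. At 2 h against 1 h the median log2 ratio was 0.07 over the 803 genes at 4000 and above, and the spiked-in controls read 1.17-fold and 1.1-fold (cre, 3′ and 5′ probe sets), 1.08-fold (bioC 3′), 0.99-fold (bioD 3′) and 1.14-fold (bioD 5′) of their 1 h signal. Beside that shift, 14 of 15 cytosolic ribosomal protein genes (median 0.11), 23 of 26 oxidative phosphorylation genes (median 0.09) and 10 of 10 reference genes (median 0.13) read higher at 2 h than at 1 h. After quantile normalization, which sets all arrays to 1 distribution, these medians were 0.00, 0.00 and 0.06, that of the mitosis genes 0.11 and that of the cholesterol genes −0.22. At 6 h against 1 h the ribosomal protein median was −0.01 after quantile normalization and 0.06 without it. Actb read 9764.4, 10959.6 and 10751.1 on the vehicle arrays.

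**Figure D4:**
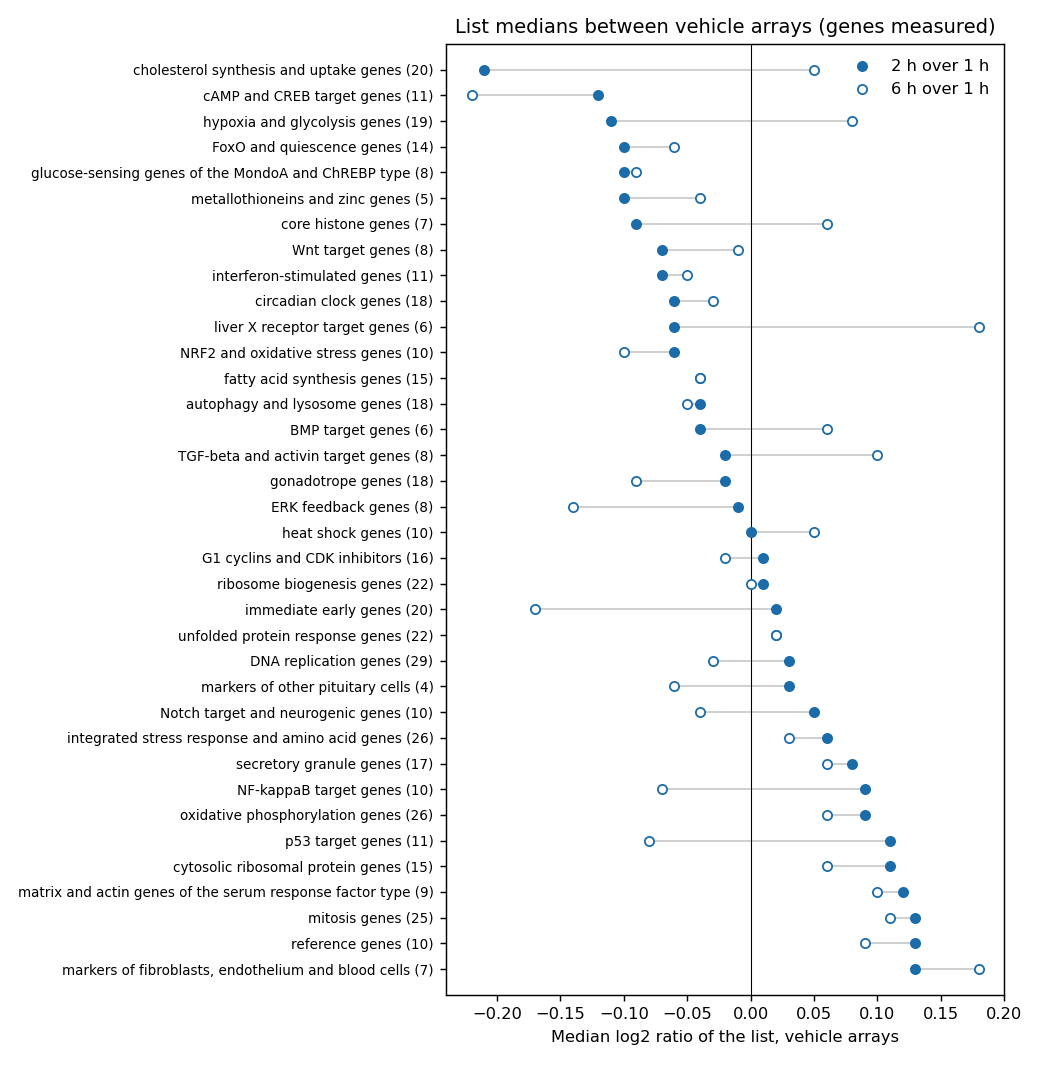
Median log2 ratio (horizontal axis) of 36 gene lists (rows, with the number of genes measured) between vehicle arrays at 2 h over 1 h (filled) and 6 h over 1 h (open). Cholesterol synthesis and uptake genes have the lowest median at 2 h over 1 h, at −0.21, and cAMP and CREB target genes the lowest at 6 h over 1 h, at −0.22.

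Of 18 measured gonadotrope genes, 2 passed 1.5-fold in some pair of vehicle arrays, beside 8% of all genes. They were Egr1, given above and on this list as an activator of Lhb, and the estrogen receptor gene Esr1. Esr1 read 187.4, 133.6 and 202 with vehicle and 95.9, 185 and 95.1 with activin, and passed only through a 2 h signal under the signal limit. Lhb, the luteinizing hormone beta subunit, read 724.7, 714.7 and 668.3 on the vehicle arrays and 764.5, 862.6 and 1419.7 on the activin arrays. Gnrhr, the receptor for gonadotropin-releasing hormone, had 2688.2, 2985.2 and 2493 on the vehicle arrays and 2724.8, 3595.2 and 3638 on the activin arrays. A much dimmer Gnrhr probe set read 230.9, 196.4 and 94.4 on the vehicle arrays, the last under the signal limit. Nr5a1, which encodes SF-1, had 3586.9, 3428.9 and 3281.8 on the vehicle arrays and 3023.9, 2857.8 and 3040.2 on the activin arrays. Smad7, the feedback inhibitor of activin signalling, had 416.4, 416.4 and 605.4 on the vehicle arrays, within 1.5-fold, and 972.6, 914.3 and 688.7 on the activin arrays. Markers of fibroblasts, endothelium and blood cells, a check for other cells, had 7 measured genes. Of these Lyz2, the macrophage lysozyme, was lower at 2 h and at 6 h (395.7, 180.6 and 208) and Csf1r, the macrophage growth factor receptor, was higher at 6 h (574.5, 689.9 and 908.1), though another Csf1r probe set read 447.6, 454.1 and 420.8. Of 7 defining markers of these cells, Pecam1, Cdh5 and Adgre1 passed the signal limit and Col1a1, Col3a1, Ptprc and Hba-a1 did not, and their summed signal was 2108.9, 2201.2 and 2164 at 1, 2 and 6 h. The part of other cells in the results was not tested.

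The activin cultures are the only other arrays of the same times. Of the 260 genes higher at 6 h than at 1 h with vehicle, 58 were also at least 1.5-fold higher between the activin arrays and 25 were lower, beside 5.31% and 3.92% of all genes. Of the 236 lower genes, 38 were lower and 20 higher between the activin arrays. At 2 h against 1 h, 39 of 216 higher genes were higher and 30 lower, and 24 of 189 lower genes were lower and 19 higher, beside 3.7% of all genes higher and 3.75% lower. Dim genes made up most of these. Of all genes with a mean vehicle signal under 500, 16.3% were 1.5-fold apart between the activin arrays at 6 h against 1 h. Over all genes the share was 9.22%, so the shares of all genes are too low a measure for dim genes. Among genes with a mean vehicle signal of at least 500 the treatments lay closer. There, 17 of 63 genes higher at 6 h than at 1 h with vehicle were higher with activin and 2 lower, beside 3.19% and 2.47% of all such genes, and 11 of 41 lower genes were lower and 4 higher. At 2 h against 1 h, 6 of 39 higher genes were higher and 1 lower, and 5 of 30 lower genes were lower and 3 higher, beside 2.04% of all such genes higher and 1.27% lower. All these activin ratios use the activin 1 h array.

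**Figure D5:**
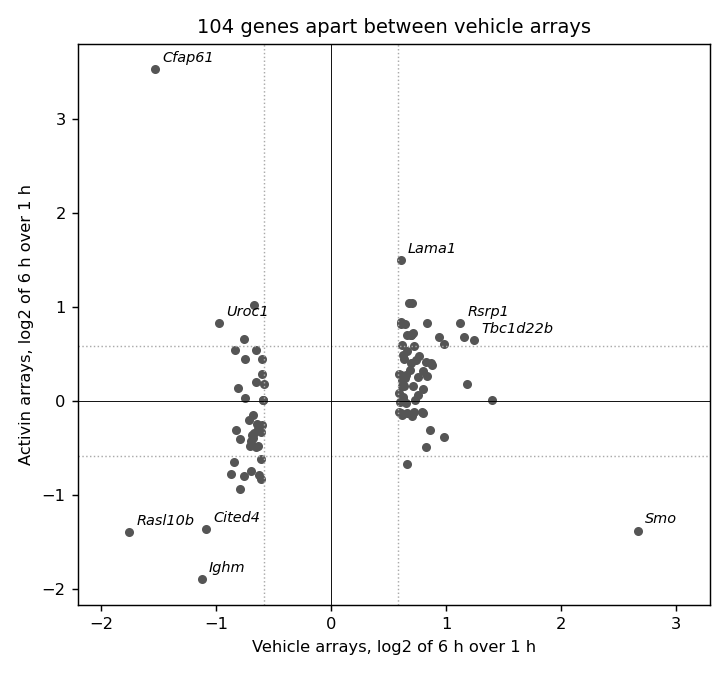
log2 ratio of 6 h over 1 h on the activin arrays (vertical axis) against that on the vehicle arrays (horizontal axis) for the 104 genes with a mean vehicle signal of at least 500 that were at least 1.5-fold apart between the vehicle arrays. Dotted lines mark 1.5-fold: 28 genes passed it the same way on both treatments and 6 passed it opposite ways, Smo and Cfap61 among these 6.

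The bright genes past 1.5-fold the same way on both treatments, chosen here after their values were seen, were 17 higher and 11 lower at 6 h and 6 higher and 5 lower at 2 h. Rsrp1, an arginine- and serine-rich protein gene, read 924.9, 1531 and 2010.3 on the vehicle arrays and 925.2, 1222.5 and 1638 on the activin arrays, and its other 2 probe sets had the same direction at 6 h on both treatments. Exo1, an exonuclease of DNA mismatch repair, had 1196.4, 2031.9 and 2364.6 on the vehicle arrays and 1117.7, 1782.7 and 1695.8 on the activin arrays, and its other probe set had log2 ratios of 0.37 and 0.27 at 6 h against 1 h. The 1 h array was the lowest of each treatment in both genes. Nck1, an adaptor of receptor tyrosine kinases, had 392.2, 546.5 and 626.6 on the vehicle arrays and 291.1, 502.6 and 597.3 on the activin arrays, but its other probe set had log2 ratios of 0.49 and −0.12 at 6 h against 1 h. Elmo1, an activator of Rac signalling, had 606.4, 684.6 and 923.4 on the vehicle arrays and 635.4, 684.6 and 1116.1 on the activin arrays. Pxdn and Lama1, which encode the matrix proteins peroxidasin and laminin alpha 1, were higher at 6 h too, Pxdn at 517.8, 696.8 and 818.4 and Lama1 at 511.6, 536 and 778.8 on the vehicle arrays. Lama1 reached 1536.4 on the activin 6 h array, the highest of its 6 signals.

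Among the genes lower at 6 h on both treatments, Rhob, a small GTPase known as an immediate early gene, read 819.2, 736.3 and 529.6 on the vehicle arrays and 690.9, 709.9 and 397.8 on the activin arrays. Mms22l, a gene of replication fork repair, had 1557.2, 1366.5 and 865.4 on the vehicle arrays and 1459.7, 1421.8 and 928.5 on the activin arrays, but its other probe set had log2 ratios of 0.15 and 0.23. Baalc, first known from acute leukemia, had 992.9, 742.6 and 586.5 on the vehicle arrays and 853.2, 748.5 and 489 on the activin arrays, and both of its probe sets were lower. At 2 h, Nbn, a sensor of DNA double-strand breaks, was higher, with 727.8, 1122.3 and 1025.7 on the vehicle arrays and 661.5, 1035.4 and 1040.3 on the activin arrays. Kank1, a regulator of actin at adhesions, was lower at 2 h, with 1102.2, 579 and 1733 on the vehicle arrays and 964.3, 612.3 and 947.7 on the activin arrays, and its other probe set was lower too. Dhrs1, a short-chain dehydrogenase, was lower at 2 h and back at 6 h, with 685.6, 371.8 and 676.7 on the vehicle arrays and 768.3, 427.2 and 742.8 on the activin arrays. For Nbn, Kank1 and Dhrs1 the vehicle and activin arrays of 1 and 2 h lay close together.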

How the data were processed

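RNA of 6 LβT2 cultures, 1 for each of vehicle and activin at 1, 2 and 6 h, was measured on 1 array each, and groups were taken from the sample titles. The deposited values are linear signal intensity values per probe set, made by the authors with GCOS 1.4, the version that the submitters' processing notes give. The scaling was read from the values: the mean left after trimming 2% at each end was 499.9 on all 6. No pseudocount was added. Probe sets were named through GEO's platform annotation, with symbols updated through RefSeq for 34741 and kept as listed for 204. A further 932 with several genes and 9160 with none were not named. Genes are represented by their brightest probe set over the vehicle arrays (5027 genes had several past the limit). Vehicle arrays were compared by log2 ratios, at 1.5-fold, with no test. Time was tested over all 6 arrays with limma 3.58.1 in R 4.3.3 (2 residual degrees of freedom, two-sided, Benjamini-Hochberg), after the fit was tested on simulated data. Named genes were the 12 highest and 12 lowest of 6 h over 1 h and the 8 highest and 8 lowest of 2 h over 1 h, with signals under the limit (155) raised to it and clone names passed over, up to 4 members of each of 36 lists past 1.5-fold, and fixed genes, some of which are not reported here, which gave 74 genes. The members, lists (499 measured entries of 673) and tests were chosen with earlier results of these data known. The labels do not say whether the cultures were grown or hybridised on separate days. Precision is limited by the number of arrays. The authors' comparison tables were not used here.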

Additional observations from a re-analysis of the deposited data

Results flagged for a closer look

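Genes chosen by the rule for named genes that were past 1.5-fold one way between vehicle arrays and past it the other way between activin arrays of the same times are given here with log2 ratios, signals under the signal limit raised to it. The difference was not tested, with 1 array per treatment and time. At 6 h over 1 h, Smo had 2.56 with vehicle and −1.38 with activin, Six5 1.2 and −0.68, Cfap61 −1.53 and 2.38, Prl8a8 −1.17 and 1.12, Uroc1 −0.97 and 0.83, and Lyz2 −0.93 and 0.72. At 2 h over 1 h, Cps1 had 1.22 with vehicle and −0.63 with activin, Lce1h 1.74 and −1.54, Cyp2c38 1.53 and −0.69, and Otp 1.45 and −1.32. All 10 ratios with activin use the activin 1 h array. On that array the probe set at the 5′ end of 18S ribosomal RNA read 12201.8, against 610.1 on the vehicle 1 h array.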

How the results depend on the processing

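The fit over all 6 arrays called 0 genes in each pair of times under every alternative run on all 6, including limma-trend with a robust prior. A fit without the activin 1 h array, chosen after seeing the data, leaves 1 array at 1 h and 1 residual degree of freedom. It is therefore no check on this result. Counts of genes 1.5-fold apart between vehicle arrays are given at 2 h over 1 h, 6 h over 1 h and 6 h over 2 h. They were 3026, 3241 and 3221 of 18193 genes with no limit on signal, 69, 104 and 68 of 7638 with a mean signal of at least 500, and 241, 315 and 257 with a pseudocount of 50. At 2-fold they were 78, 85 and 77, and by probe sets 1052, 1323 and 1172. Quantile normalization, median centring, taking a gene's median probe set and raising signals under the limit to it kept each count within 1.5 times. Genes apart the same way on both treatments numbered 63 at 2 h over 1 h and 96 at 6 h over 1 h. Beside these, 49 and 45 were apart opposite ways. With no limit on signal, 827 and 828 were apart the same way and 753 and 672 opposite ways. At a mean signal of 500 they were 11 and 28, beside 4 and 6 opposite. With a pseudocount of 50 they were 31 and 51, beside 25 and 25 opposite. With low signals raised, the count at 2 h over 1 h became 39, beside 23 opposite. By the median of its probe sets, Serf1 changed sign at 6 h over 1 h (−0.04) and 6 h over 2 h (−0.134), and Csf1r at 6 h over 1 h (−0.089). The cause was not tested. Of 648 list medians under an alternative, 621 stayed within 0.127 of the reported value. No paired analysis was possible because each treatment and time has 1 array and no replicate number pairs the cultures; the fit over all 6 arrays compares times within treatment.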
